A study of Mus musculus with 16 samples.

Results

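Medullary thymic epithelial cells low in MHC class II (mTEClo) from mice without Psmb11 (KO) were compared with the same population from wild-type (WT) mice, across all genes. The comparison rests on 6 of the 16 RNA libraries of the series, 3 KO and 3 WT, chosen by their labels alone and fitted without the others. Cells of both genotypes came from the thymus of mice whose strain the labels give as "C57BL/6-derived BAC", with the genotype written psmb11 -/- for KO and psmb11 +/+ for WT. The labels put the age at 6 to 8 weeks and the series description counts 11 thymi, whereas the extraction protocol names 7-day-old C57BL/6 mice and 14 animals, so the age is uncertain. Medullary cells were sorted as CD45-, EpCAM+, Ly51- and UEA1+; how the MHC class II low cells were then separated, how many animals each library pools and which part of Psmb11 the knockout removes are not stated.

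Psmb11 encodes beta5t, the catalytic subunit that replaces the standard beta5 subunit in the thymoproteasome of cortical thymic epithelial cells (cTEC). That form of the 20S proteasome makes the MHC class I peptides on which CD8 T cells are positively selected. Medullary epithelial cells (mTEC) instead present tissue-restricted self-antigens for negative selection. The MHC class II low compartment holds immature mTEC, the Ccl21-producing cells that attract thymocytes, and cells past the Aire-expressing stage, among them thymic tuft cells, which carry the taste-signalling machinery of tuft cells in the gut and airway.

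The libraries matched their labels. In the authors' RPKM, a read density per unit of gene length and of sequencing depth, levels were 1770 ± 59.9 in mTEClo KO and 1529 ± 50.4 in mTEClo WT for the MHC class II gene H2-Aa (SD, n = 3 each), against 4987 ± 285 in mTEChi KO and 4682 ± 74.0 in mTEChi WT, the MHC class II high cells (n = 3 each). Aire, the regulator of tissue-restricted genes, stood at 4.93 RPKM in mTEClo KO and 5.23 in mTEClo WT, against 636 in mTEChi KO and 682 in mTEChi WT. Gene counts totalled 108498789 to 115251165 per KO library and 95777929 to 103440678 per WT library, and did not overlap. Reads outside genes made up 13.7% to 17.4% of KO libraries and 17.6% to 19.1% of WT libraries, also without overlap (two-sided exact permutation p = 0.1, the smallest that 3 against 3 allows). Their part in the results below was not tested, apart from the checks on gene length.

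Of 17073 genes that passed the filter on low counts, 1 differed between the genotypes at a Benjamini-Hochberg adjusted p under 0.05 in edgeR's quasi-likelihood test, and that gene was Psmb11. None was called higher (0 genes), and 0.00586% were called in all. An unadjusted p under 0.05 was found for 943 genes higher in KO (5.52%) and 1198 lower in KO (7.02%). Nothing ties the libraries to separate animals, so each p-value is relative to a library-to-library spread that may be technical. DESeq2, fitted to the same counts, called 318 of 14088 genes (2.26%), 83 higher (0.589%) and 235 lower (1.67%). In 313 of those 318 the genotypes did not overlap, against 9.44% of all genes with KO wholly above WT and 9.18% wholly below. Since the 318 were picked on these same libraries, that is no separate support. The difference between 1 gene called by edgeR and 318 by DESeq2 is the largest dependence on method found here, so every gene other than Psmb11 is given by its values.

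Psmb11 (mm10, chr14:54625310-54629556 in the authors' table) fell in mTEClo to 1.49, 1.04 and 1.03 CPM (gene counts relative to the TMM-scaled library total) in KO libraries, against 7.32, 11.9 and 8.01 CPM in WT libraries. The read counts were 177, 111 and 115 in KO and 707, 1220 and 778 in WT, and the groups were far apart. The log2 fold change was -2.93 (SE 0.23, adjusted p = 5.44e-04 by edgeR). In the authors' RPKM values, mTEClo stood at 0.296, 0.203 and 0.199 in KO and 1.38, 2.25 and 1.49 in WT. The WT mTEClo level was thus well under that of the cortical cells in which the gene works, whose 2 libraries had 0.338 and 0 RPKM in cTEC KO and 28.7 and 25.4 RPKM in cTEC WT. The remaining KO reads map to a gene whose deleted part is not given here, and which stretch of it they cover was not analysed.

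**Figure D1:**
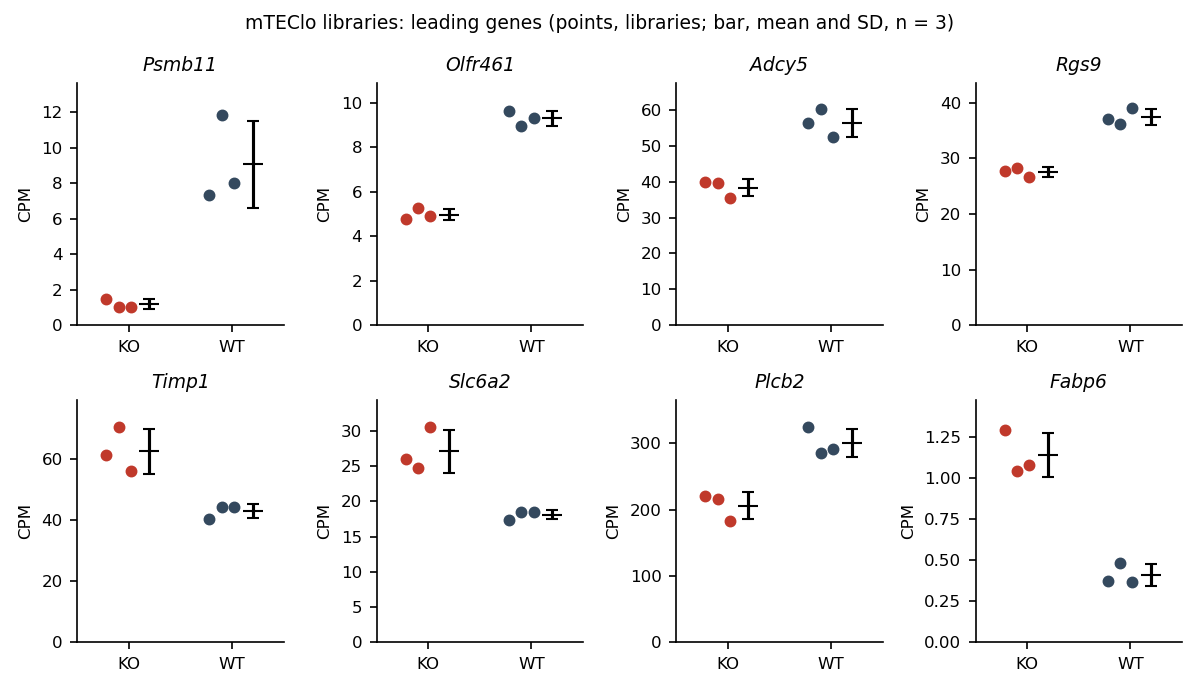
CPM of 8 genes in each mTEClo library, with KO at the left and WT at the right of each panel (points, libraries; cross and bar, mean and SD, n = 3; every axis starts at 0). The genotypes do not overlap in any panel, and Psmb11 is the gene that passed the test, with a log2 fold change of -2.93.

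Genes of tuft cells were below their WT level throughout. Of 30 listed genes, 28 passed the filter on low counts, and all 28 had a log2 fold change under 0, with a median of -0.32 against 0.00 over all genes tested. In 13 of the 28 every KO library lay below every WT library, where 9.18% of all genes tested did. An unadjusted p under 0.05 was found for 16, all on the low side (7.02% of all genes), and 8 were called lower by DESeq2 (1.67%), but 0 passed edgeR. In bulk RNA, fewer cells of a type and less RNA per cell cannot be told apart.

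Plcb2, the phospholipase that relays taste receptor signals, had 220, 216 and 183 CPM in KO and 325, 286 and 291 CPM in WT. All KO libraries were under all WT libraries (log2 fold change -0.54, SE 0.09, adjusted p = 0.0839 by edgeR). Trpm5, the cation channel that opens downstream of it, had 485, 472 and 378 CPM in KO and 603, 562 and 567 CPM in WT (log2 fold change -0.38, SE 0.10). Chat, which makes acetylcholine, had 25.6, 25.2 and 17.9 CPM in KO and 33.7, 30.3 and 34.6 CPM in WT (-0.52, SE 0.12). Il17rb, a subunit of the IL-25 receptor, had 49.98, 47.8 and 39.8 CPM in KO and 60.1, 57.0 and 64.8 CPM in WT (-0.40, SE 0.09). L1cam, an adhesion molecule, had 70.9, 66.3 and 56.7 CPM in KO and 96.7, 87.2 and 87.5 CPM in WT (-0.48, SE 0.09). KO replicate 3 was the lowest library for each of these 5 genes, and no KO value reached a WT value.

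Pou2f3, the transcription factor that specifies tuft cells, had 100.1, 79.4 and 65.3 CPM in KO and 95.6, 94.0 and 93.8 CPM in WT. Its groups overlapped, because KO replicate 1 was the highest of the 6 libraries (log2 fold change -0.21, SE 0.12). KO libraries differed from one another more than WT libraries did. Set against each gene's mean over the 6 libraries, the tuft list had medians of 0.01, -0.11 and -0.43 in KO and 0.20, 0.13 and 0.21 in WT on the log2 scale. Without KO replicate 3 the list median was -0.20, and without KO replicate 1 it was -0.45.

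Taste receptors, the sensors at the head of this pathway, had the median furthest from 0 among the lists examined. This family was singled out after the values were seen, and it shares 4 genes with the tuft list. Of 38 Tas1r and Tas2r genes in the table, 34 passed the filter and all 34 had a log2 fold change under 0. The median was -0.60 and the range -1.73 to -0.03. In 15 of the 34 the KO libraries all lay below the WT libraries (9.18% of all genes), 16 had an unadjusted p under 0.05 on the low side (7.02%), and DESeq2 called 9 lower (1.67%), while edgeR called 0. The summed level of the family was 106, 103 and 83.2 CPM in KO and 150, 129 and 149 CPM in WT, so the groups did not overlap. Without KO replicate 3 the median was -0.49. Most of these genes stand in clusters on 1 chromosome (30 of 34 on chromosome 6), and related members may share reads.

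Within the family, Tas1r3, the shared subunit of the sweet and umami receptors, had 16.7, 14.5 and 14.6 CPM in KO and 25.8, 21.1 and 19.7 CPM in WT (log2 fold change -0.54, SE 0.11). The bitter receptor gene Tas2r113 had 4.34, 5.18 and 3.70 CPM in KO and 7.89, 6.09 and 8.39 CPM in WT (-0.76, SE 0.17). Tas2r137 had 4.94, 6.22 and 4.86 CPM in KO and 9.35, 7.47 and 8.11 CPM in WT (-0.64, SE 0.14). Tas2r138 had 3.83, 3.69 and 3.52 CPM in KO and 6.12, 4.97 and 6.29 CPM in WT (-0.65, SE 0.15). None of these 4 genes overlapped between genotypes.

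The factor Pou2f3 belongs to a class that binds the octamer, whose letters are ATGCAAAT. This motif was looked for on both strands of the promoters of the tuft list, from 250 bases before to 50 after each RefSeq gene start (GRCm38.p6). It was found in 4 of the 24 tuft list genes with a promoter in the table (16.7%), in 7 of the 30 taste receptor genes with one (23.3%), and in 1.97% of 27025 gene symbols. The windows of the 4 tuft list genes are shown as examples, with the octamer on either strand in capitals; 2 of them are also taste receptor genes. The windows lie at chr6:65144886-65144915 (Hpgds, minus strand), chr17:27057266-27057295 (Itpr3, plus strand), chr6:40493435-40493464 (Tas2r108, plus strand) and chr6:23970166-23970195 (Tas2r118, minus strand).
Hpgds: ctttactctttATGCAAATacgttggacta
Itpr3: tcccaggcgggATTTGCATgtgtgtggcgg
Tas2r108: atccttgaaagATTTGCATctcagtaaaag
Tas2r118: gtgtaaggaggATTTGCATccacaaagaag

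A match to these letters is a description of the sequence, and binding was not measured. Taste receptor genes are a clustered family, so their matches may not be separate occurrences. The share over all gene symbols includes genes not tested here. Hpgds, a prostaglandin D2 synthase, had 43.2, 40.0 and 31.6 CPM in KO and 47.2, 43.6 and 52.1 CPM in WT, without overlap (log2 fold change -0.32, SE 0.11). Itpr3, the calcium channel of taste transduction, had 109, 118 and 128 CPM in KO and 161, 151 and 127 CPM in WT, where WT replicate 3 lay within the KO range (-0.31, SE 0.10). The bitter receptor Tas2r108 had 11.99, 11.5 and 9.45 CPM in KO and 15.9, 13.9 and 16.7 CPM in WT, without overlap (-0.50, SE 0.12). Tas2r118 had 3.77, 2.56 and 3.03 CPM in KO and 4.78, 3.65 and 5.69 CPM in WT, and its groups overlapped (-0.59, SE 0.20).

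**Figure D2:**
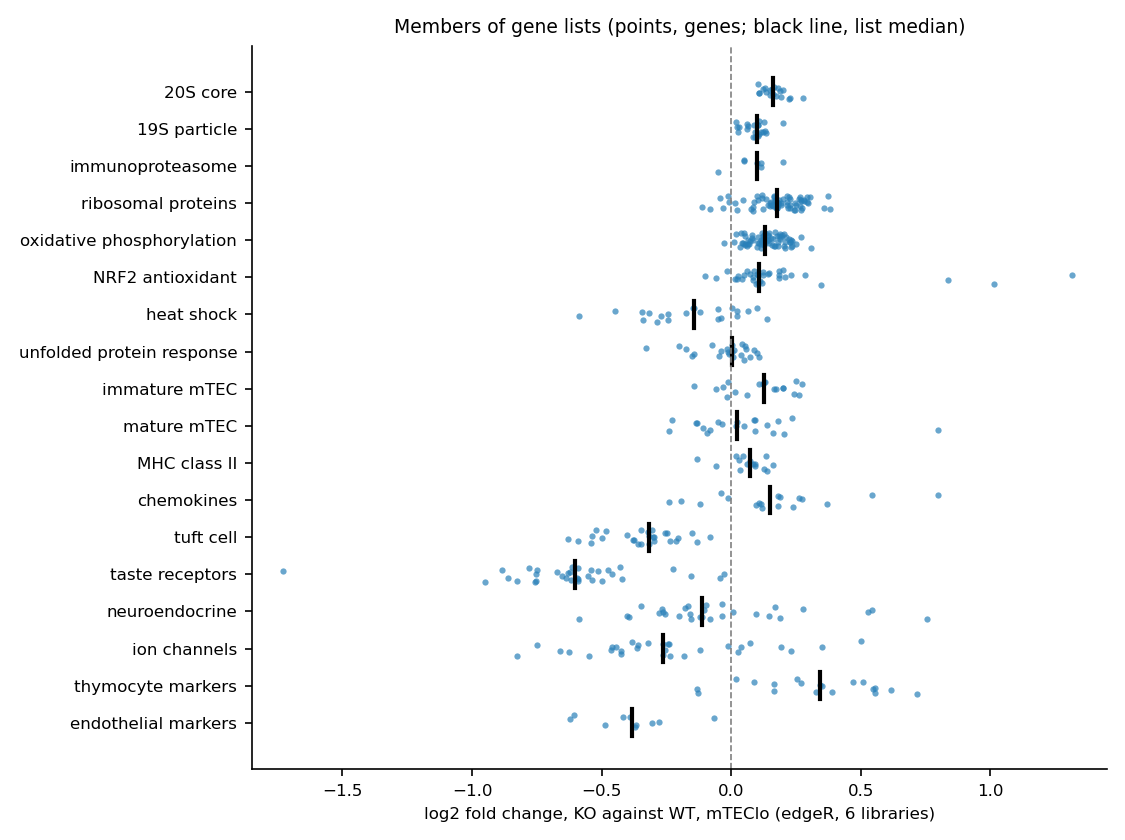
Log2 fold change, KO against WT, of each tested member of 18 gene lists in mTEClo (points, genes; black line, list median; dashed line, 0). Taste receptor and tuft cell genes lie wholly below 0, with medians of -0.60 and -0.32, while genes of the 20S core lie wholly above 0, with a median of 0.16.

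Ion channel genes also tended to lower values, whereas skeletal muscle genes did not (median 0.14, 13 of 21 above 0). Among voltage-gated and calcium-activated chloride channels, 30 of 31 genes passed the filter and 23 had a log2 fold change under 0, with a median of -0.26. KO libraries lay below WT libraries for 13 (9.18% of all genes) and above them for 0, 17 had an unadjusted p under 0.05 on the low side (7.02%), and DESeq2 called 5 lower (1.67%). Cacna1d, an L-type calcium channel, had 11.9, 12.6 and 11.8 CPM in KO and 17.6, 15.9 and 16.5 CPM in WT, without overlap (-0.46, SE 0.09). Scn3a, a sodium channel, had 11.0, 12.6 and 12.05 CPM in KO and 16.02, 15.2 and 17.8 CPM in WT, also without overlap (-0.46, SE 0.10). Kcnc1, a potassium channel, had log2 fold change -0.55 (SE 0.13), and Scn2a1, another sodium channel, -0.66 (SE 0.19). Channel genes are long, with a median exon length of 9458 bases in this list, which bears on the length trend given further on.

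Neuroendocrine genes were mixed, with 20 of 29 under 0 and a median of -0.11, which was -0.03 without WT replicate 3. KO libraries lay wholly below WT for 7 (against 9.18% of all genes) and wholly above for 2 (against 9.44%). An unadjusted p under 0.05 was found for 8 on the low side (7.02% of all genes) and 2 on the high side (5.52%). DESeq2 called 3 lower (1.67%) and 0 higher (0.589%). Chgb, a secretory granule protein, had 43.4, 55.7 and 51.3 CPM in KO and 65.9, 57.0 and 74.7 CPM in WT (-0.39, SE 0.11). Rimbp2, which acts at presynaptic release sites, had 5.95, 7.61 and 7.95 CPM in KO and 10.8, 10.5 and 11.0 CPM in WT (-0.59, SE 0.13). Both genes lay wholly below WT. On the high side, the hormone gene Sst had 21.9, 19.7 and 22.2 CPM in KO and 17.0, 18.9 and 7.92 CPM in WT, without overlap (0.54, SE 0.24), and Ghrl, which encodes ghrelin, had 7.01, 11.9 and 6.45 CPM in KO and 6.13, 4.32 and 7.11 CPM in WT, with overlap (0.53, SE 0.24).

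The proteasome genes that remain in KO cells were slightly above their WT level. Of 19 genes of the 20S core and its assembly factors, 19 passed the filter and had a log2 fold change above 0, with a median of 0.16 and a range of 0.10 to 0.28. KO libraries lay above WT libraries for 12 of them, where 9.44% of all genes tested did, 8 had an unadjusted p under 0.05 on the high side (5.52% of all genes), and 0 were called by edgeR or DESeq2. Psmb5, the standard beta5 subunit whose place beta5t takes, had 44.3, 47.8 and 46.4 CPM in KO and 41.8, 41.4 and 38.4 CPM in WT, without overlap (0.19, SE 0.07). The alpha-ring gene Psma5 had 50.7, 57.2 and 47.7 CPM in KO and 40.6, 43.3 and 44.6 CPM in WT (0.28, SE 0.08). Psmb3, Psma1 and Psmb7 had log2 fold changes of 0.23, 0.22 and 0.20, each without overlap.

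The 19S regulatory particle, which unfolds substrates and feeds them to the core, had 22 of 22 genes above 0 with a median of 0.10, and KO above WT in all libraries for 7 (9.44% of all genes). That median was 0.06 without KO replicate 2 and 0.06 with the length term. Shfm1, its smallest subunit, had the smallest p (0.20, SE 0.08), followed by Psmd6 (0.13), Psmd12 (0.11) and Psmc1 (0.12). Of the 7 immunoproteasome and activator genes, 6 were above 0 with a median of 0.10. The immune beta5i subunit Psmb8, a further relative of beta5t, had 188, 188 and 184 CPM in KO and 178, 172 and 173 CPM in WT, without overlap (0.10, SE 0.07). The beta1i subunit Psmb9 had 117, 123 and 137 CPM in KO and 116, 115 and 118 CPM in WT, and its groups overlapped (0.12, SE 0.08). Ubiquitin and its handling genes had a median of 0.04, with 15 of 22 above 0.

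Heat shock chaperones, which respond when unfolded protein builds up, had a median of -0.14, with 16 of 22 under 0. The median was -0.06 without WT replicate 3 and -0.09 with the length term described further on. Of the list, 3 members lay wholly below WT and 1 wholly above, shares near the 9.18% and 9.44% of all genes; 8 had an unadjusted p under 0.05 on the low side (7.02% of all genes), and DESeq2 called 3 lower (1.67%). Hsph1, a partner of Hsp70, had 130, 167 and 151 CPM in KO and 168, 236 and 271 CPM in WT (-0.59, SE 0.15). Hspa1b, an inducible Hsp70, had 1423, 1368 and 1477 CPM in KO and 1595, 2133 and 2094 CPM in WT (-0.45, SE 0.10). Hspa1a, its near-identical neighbour, with which it may share reads, had 1269, 1240 and 1329 CPM in KO and 1323, 1799 and 1757 CPM in WT (-0.35, SE 0.11). WT replicate 1 was the lowest WT library for all 3 genes, and for Hspa1a it lay within the KO range. The heat shock element, a run of alternating GAA and TTC units, was found on either strand in 4 of 17 genes of the list with a promoter in the RefSeq table, where 0.662% of gene symbols held it. The element of Hsph1, the gene with the largest difference, lies just after its start (chr5:149636280-149636308, GRCm38.p6, minus strand) and is in capitals.
Hsph1: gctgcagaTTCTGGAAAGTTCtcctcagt

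The other 3 genes that held the element, Chordc1, Hspd1 and Hspe1, had log2 fold changes of -0.05, 0.00 and 0.14. Hspd1 and Hspe1 hold it in the same window on opposite strands (chr1:55088053-55088082), so the same stretch was counted for both genes. Genes of the unfolded protein response of the endoplasmic reticulum had a median of 0.00, with 13 of 24 above 0, and Ern1, its sensor IRE1, lay wholly below WT (-0.33, SE 0.09). Antioxidant genes under the factor NRF2 had 31 of 34 above 0 and a median of 0.11, with KO wholly above WT for 10 (9.44% of all genes) and below for 1. Without KO replicate 2 that median was 0.07, and with the length term it was 0.08, with 26 of 34 above 0. Prdx1, a peroxiredoxin, had 230, 254 and 215 CPM in KO and 178, 191 and 205 CPM in WT (0.28, SE 0.08), and thioredoxin, Txn1, had 269, 273 and 255 CPM in KO and 224, 219 and 238 CPM in WT (0.23, SE 0.07). Gstm1, a glutathione transferase with near-identical relatives, had a log2 fold change of 1.02, and of 0.31 without KO replicate 2, with 29.4, 80.4 and 26.1 CPM in KO and 23.1, 21.2 and 22.8 CPM in WT.

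Ribosomal protein genes and nuclear genes of oxidative phosphorylation, the largest lists, lay mostly on the high side. Of 70 ribosomal protein genes tested, 64 were above 0 with a median of 0.18, KO lay above WT in every library for 34 (9.44% of all genes) and below for 0, and DESeq2 called 7 higher (0.589%). Rplp1, of the ribosomal stalk, had 548, 588 and 535 CPM in KO and 454, 450 and 462 CPM in WT (0.29, SE 0.07). Rpl35 had 95.1, 106 and 85.1 CPM in KO and 72.4, 71.4 and 79.3 CPM in WT (0.36, SE 0.09). Ribosomal protein genes have many processed copies in the genome, so how reads were shared among them is uncertain. Of 71 oxidative phosphorylation genes tested, 70 were above 0 with a median of 0.13, and KO lay above WT for 29 (9.44% of all genes). Atp5k, a subunit of the mitochondrial ATP synthase, had 52.3, 61.6 and 56.5 CPM in KO and 45.2, 45.5 and 47.1 CPM in WT (0.31, SE 0.07).

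**Figure D3:**
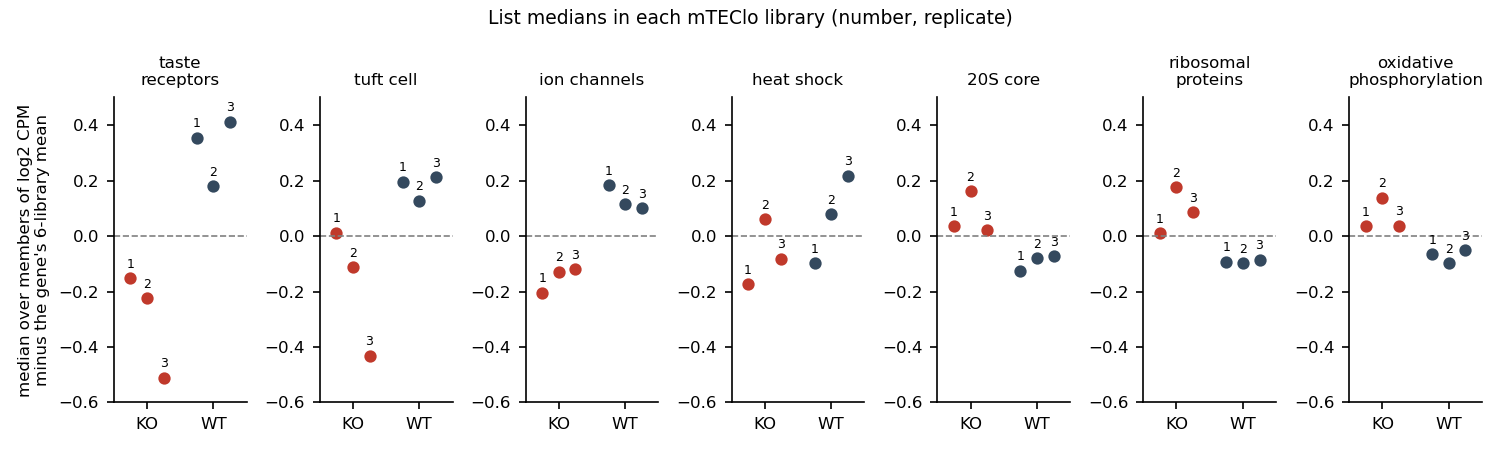
Median over list members of log2 CPM minus each gene's mean over the 6 libraries, for 7 lists in each mTEClo library (KO left, WT right; numbers, replicates). KO and WT do not overlap except for heat shock genes, and the KO values of the tuft list spread from 0.01 to -0.43.

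Short and long genes differed between the genotypes, and several of these lists are short or long. Exon lengths from GENCODE M21 were matched by symbol to 15963 of the genes tested (93.5%). The median log2 fold change was 0.11 in the shortest of 10 equal groups of genes (86 to 1547 bases) and -0.11 in the longest (9531 to 123179 bases), with Spearman's rho of -0.289 across genes, which are not independent replicates. Within single libraries, the shortest group minus the longest was 0.19, 0.09 and 0.03 in KO and -0.05, -0.11 and -0.14 in WT, without overlap. Among the genes DESeq2 called that had a length, 184 of 215 lower ones were longer than the median gene and 63 of 78 higher ones were shorter. In mTEChi the same medians were 0.04 and -0.03 (rho -0.151).

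**Figure D4:**
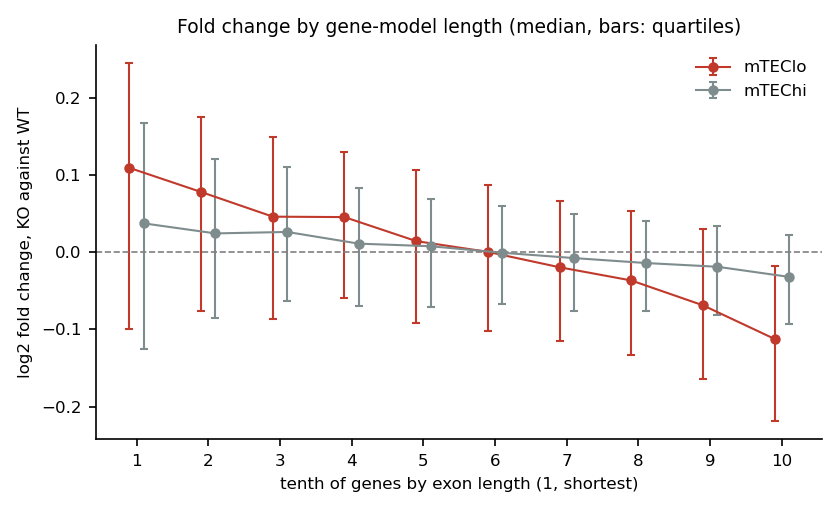
Median log2 fold change, KO against WT, with quartiles as bars, in 10 equal groups of genes ordered by exon length, for mTEClo and mTEChi. In mTEClo the median passes from 0.11 in the shortest group to -0.11 in the longest; in mTEChi the slope is smaller.

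With a smooth length term removed from each library, the list medians moved as follows. The 20S core was at 0.09 with 16 of 19 above 0, ribosomal proteins at 0.11 with 56 of 70 above 0, and oxidative phosphorylation at 0.06 with 52 of 71 above 0. MHC class II genes were at 0.01 with 9 of 15 above 0. Immature and Ccl21-stage genes were at 0.06 with 16 of 19 above 0, and immunoproteasome genes at 0.05 with 6 of 7 above 0. Channel genes were at -0.23. Taste receptors, whose genes are short, were at -0.72 and tuft genes at -0.40, with 0 of 34 and 0 of 28 above 0, so both lay further from 0 than without the term. Library traits such as this one and the genotype cannot be told apart when all KO libraries differ from all WT libraries.

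Genes of medullary stages differed in how far they lay from WT. Immature and Ccl21-stage genes had a median of 0.13, with 14 of 19 above 0. KO lay wholly above WT for 6 (9.44% of all genes), and DESeq2 called 1 higher (0.589%). Apoe, a lipid carrier, had 1862, 2118 and 2090 CPM in KO and 1754, 1704 and 1651 CPM in WT (0.25, SE 0.07). Ccl19, a chemokine that draws CCR7-bearing thymocytes to the medulla, had 205, 184 and 216 CPM in KO and 165, 162 and 179 CPM in WT (0.26, SE 0.08). Mature mTEC genes had a median of 0.02 (0.10 without WT replicate 1), with 12 of 21 above 0. KO lay wholly above WT for 6 of these genes (9.44% of all genes), and DESeq2 called 1 higher (0.589%). Ccl22, a chemokine for CCR4, had 6.39, 4.90 and 5.24 CPM in KO and 2.63, 3.82 and 3.06 CPM in WT, without overlap (0.80, SE 0.18). MHC class II genes had a median of 0.07 with 13 of 15 above 0, and H2-Aa had 2229, 2255 and 2173 CPM in KO and 1904, 1999 and 2056 CPM in WT (0.16, SE 0.07). Tissue-restricted antigen genes had a median of 0.00, with 10 of 19 above 0. Interferon response genes had a median of 0.01, cortical TEC genes of 0.08 and cell cycle genes of 0.04.

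Markers of other cells were also measured. Thymocyte markers had 17 of 19 genes above 0 and a median of 0.34, but KO and WT overlapped for each of them, and the median was 0.04 without KO replicate 1 and 0.57 without WT replicate 1. Their summed level was 192, 146 and 124 CPM in KO and 160, 126 and 113 CPM in WT. Endothelial markers had 10 of 10 under 0 and a median of -0.38, with summed levels of 94.2, 98.4 and 91.5 CPM in KO and 142, 131 and 96.2 CPM in WT. WT replicate 3 lay close to the KO libraries, and without WT replicate 1 that median was -0.26. Fibroblast and pericyte markers summed to 1355, 1359 and 1389 CPM in KO and 1167, 1353 and 1173 CPM in WT. The erythroid marker Hba-a1 was listed at 0 RPKM in all 6 groups of the series, but Alas2, another erythroid marker, was not. Alas2 stood at 0.557 RPKM in mTEClo KO and 0.604 in mTEClo WT, against 8.06 in mTEChi KO and 6.99 in mTEChi WT. What these markers contribute to the lists above was not tested.

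A further set of genes had the smallest p-values after Psmb11. They did not pass edgeR's threshold and were picked after their values were seen. DESeq2 called every one of them (2.26% of all genes), but from the same counts, so its calls are no separate support. Olfr461, an odorant receptor gene (chr6:40544036-40544977, mm10), had 4.75, 5.26 and 4.91 CPM in KO and 9.65, 8.94 and 9.29 CPM in WT (log2 fold change -0.90, SE 0.12, adjusted p = 0.0584 by edgeR). Adcy5, an adenylyl cyclase (chr16:35155636-35304549), had 39.8, 39.7 and 35.6 CPM in KO and 56.3, 60.1 and 52.4 CPM in WT (-0.55, SE 0.08, adjusted p = 0.0839 by edgeR). Rgs9, which speeds the shut-off of G proteins (chr11:109225355-109298181), had 27.8, 28.3 and 26.6 CPM in KO and 37.2, 36.1 and 39.0 CPM in WT (-0.44, SE 0.07). These 3 signalling genes lay wholly below WT.

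On the high side, Timp1, a secreted inhibitor of matrix metalloproteinases (chrX:20870166-20874737), had 61.1, 70.5 and 56.0 CPM in KO and 40.2, 44.1 and 44.3 CPM in WT (0.54, SE 0.09, adjusted p = 0.0839 by edgeR). Slc6a2, the noradrenaline transporter (chr8:92961047-93001667), had 25.9, 24.8 and 30.5 CPM in KO and 17.4, 18.4 and 18.5 CPM in WT (0.58, SE 0.10). Both lay wholly above WT. The cytoskeletal gene Eppk1, the adhesion genes Nfasc and Dscaml1, the adhesion receptor Bai2, and Dmxl2, Gdap10 and Osr2 lay wholly below WT, with log2 fold changes between -0.83 and -0.44.

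Nuclear long noncoding RNAs, a list also added after the values were seen, had 7 of 9 under 0 and a median of -0.41. DESeq2 called 6 of them lower (1.67% of all genes). Their median exon length was 17946 bases, and with the length term the list median was -0.32. Malat1, which is kept in nuclear speckles, had 1034, 887 and 886 CPM in KO and 1179, 1284 and 1249 CPM in WT (-0.40, SE 0.08). Xist, which coats the inactive X chromosome, had 665, 615 and 866 CPM in KO and 906, 1112 and 1000 CPM in WT (-0.49, SE 0.12). Both lay wholly below WT. The sex of the animals is not stated, and the Y-linked gene Uty was present in every library, with 24.3, 28.0 and 18.3 CPM in KO and 22.6, 14.7 and 28.0 CPM in WT. Xist was highest and Uty lowest in KO replicate 3 among KO libraries and in WT replicate 2 among WT libraries, and the part of sex in the Xist values was not tested. Reads of Kcnq1ot1 (-0.55) and Snhg11 (-0.66) cannot be told apart from those of overlapping genes on the other strand, because the library kit does not mark strand.

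The knockout effect in mTEClo was also set against that in mTEChi, in 1 edgeR fit of the 12 medullary libraries with a test of the difference itself. Of 19816 genes, 2 differed (0.0101%): Fabp6, with the larger value in mTEClo (0.00505%), and Pappa2, with the smaller (0.00505%). An unadjusted p under 0.05 was found for 5.19%. The mTEClo effect taken from this larger fit, whose spread is shared with mTEChi, called 12 genes, 2 higher (0.0101%) and 10 lower (0.0505%). Beside Psmb11 these were Fabp6 and Timp1 on the high side, and Adcy5, Ano2, Bai2, Dmxl2, Dscaml1, Pappa2, Rassf4, Rgs9 and Slc6a5 on the low side.

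Fabp6, an intestinal bile acid-binding protein (chr11:43596040-43601562), had 1.41, 1.14 and 1.18 CPM in mTEClo KO and 0.406, 0.528 and 0.403 CPM in mTEClo WT, scaled over the 12 libraries. Its log2 fold change was 1.48 in mTEClo (SE 0.14) and 0.11 in mTEChi (SE 0.08), a difference of 1.37 (SE 0.16, adjusted p = 0.0116 by edgeR). Pappa2, a protease that cleaves IGF-binding proteins (chr1:158711731-158957438), had 4.998, 5.17 and 4.73 CPM in mTEClo KO and 7.56, 7.48 and 7.18 CPM in mTEClo WT. Its log2 fold change was -0.58 in mTEClo and 0.12 in mTEChi, a difference of -0.70 (SE 0.09, adjusted p = 0.0226 by edgeR). Leaving out 1 of the 12 libraries at a time, Fabp6 kept its call in 8 of 12 fits and Pappa2 in 3 of 12. Both are far more abundant in the MHC class II high cells. Fabp6 stood at 52.5, 50.7 and 49.8 CPM in mTEChi KO and 50.6, 47.1 and 44.3 CPM in mTEChi WT, and Pappa2 at 63.6, 67.8 and 65.6 CPM in mTEChi KO and 61.6, 62.1 and 57.3 CPM in mTEChi WT. What mTEChi cells within the mTEClo sort add to such values was not tested.

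Ano2, a calcium-activated chloride channel, had 0, 0 and 0 counts in mTEClo KO and 13, 14 and 4 in mTEClo WT. Against a floor of 3 counts over the KO group it was at least 11.7-fold lower. Ano2 did not pass the count filter of the 6-library fit and entered the 12-library fit through its level in mTEChi, so its call there is no support for a difference in mTEClo. Slc6a5, a glycine transporter, had 0.0919, 0.204 and 0.254 CPM in mTEClo KO and 0.722, 0.539 and 0.649 CPM in mTEClo WT (log2 fold change -1.80, SE 0.30 in the 12-library fit). Ano2 and Slc6a5 too were far higher in mTEChi.

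No other gene passed the test of the difference between populations. Psmb11 itself had a log2 fold change of -2.93 in mTEClo and -3.34 in mTEChi, a difference of 0.41 (SE 0.33, adjusted p = 0.976 by edgeR). Taste receptor genes had a median of -0.60 in mTEClo and -0.42 in mTEChi, tuft genes -0.31 and -0.20, and 20S core genes 0.16 and 0.06, all from the 12-library fit, with 0 members of these lists called for the difference. Timp1 stood at 0.55 in mTEClo and 0.05 in mTEChi, and Adcy5 at -0.55 and -0.06, each with an adjusted p for the difference above 0.05 by edgeR.

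**Figure D5:**
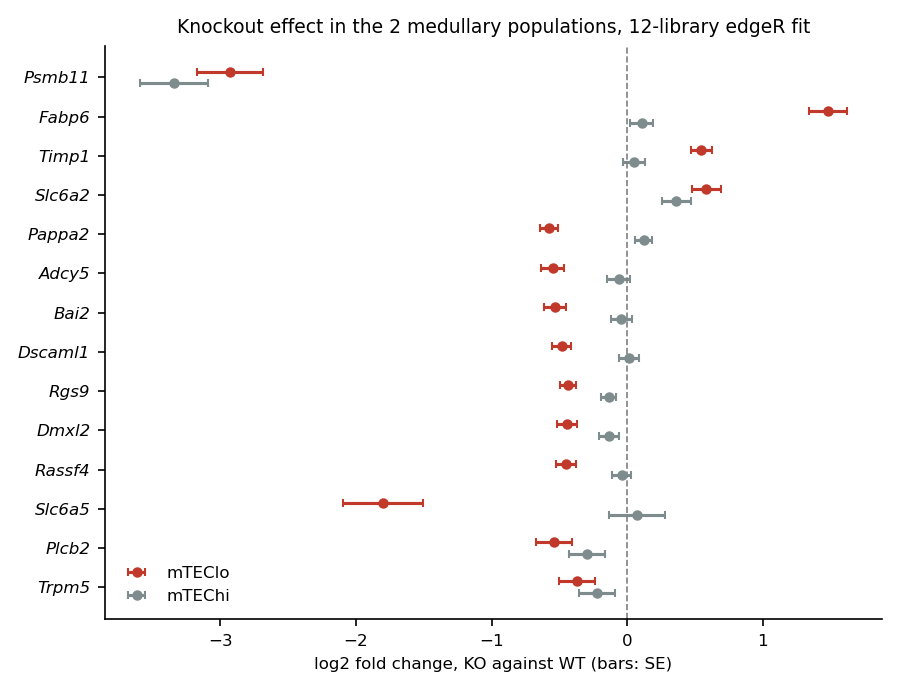
Log2 fold change, KO against WT, with its SE as a bar, for 14 genes in mTEClo (upper point) and mTEChi (lower point), from the 12-library edgeR fit. Fabp6 (1.48 against 0.11) and Pappa2 (-0.58 against 0.12) are the genes whose difference passed the test.

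The breadth of transcription was compared after thinning every library to 95777929 gene counts. KO libraries had 18463 ± 169 genes with at least 1 count and WT libraries 18572 ± 253 (SD, n = 3 each), and the groups overlapped. A two-sided exact permutation test gave p = 0.7, and with 3 libraries against 3 it cannot go below p = 0.1.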

How the data were processed

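RNA from sorted thymic epithelial cells was sequenced after preparation with a TruSeq kit, per the labels' protocols, that does not mark strand. The authors deposited raw read counts per gene symbol (23420 gene entries and 5 entries that name no gene, left out of library sizes and tests) and RPKM values for the same libraries; the tools listed in the submitters' processing notes are HTSeq 0.5.4p1 and CASAVA 1.8.2, with build mm10. Aligner, annotation and the lengths behind RPKM are not given in the sources used here.

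For the 6 mTEClo libraries the model was edgeR's (version 4.0.16, under R 4.3.3): filterByExpr, TMM, quasi-likelihood F test, Benjamini-Hochberg adjustment over all genes tested, threshold 0.05. SE came from the F statistic. CPM used TMM-scaled totals; 3 counts were at most 0.0313 CPM per library, and such bounds cover counting error only. Differences from mTEChi came from a 12-library fit. DESeq2 1.42.0, limma 3.58.1 (voom, and log2 of RPKM plus 0.1 or 1) and length offsets were alternatives. The fits were also run on simulated counts with known changes, and the outcome is not given here. Replicates were not 1 library sequenced again: chi-square per degree of freedom was 18.0 to 71.7 for pairs within a group. That value cannot tell separate animals from separate preparations of the same RNA.

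The gene lists and their members were chosen with earlier results of these data known. Named genes were Psmb11, other genes past the threshold (none), up to 4 members per list with the smallest p, and the genes whose difference between populations passed; genes outside this rule are marked in the text or were chosen by a promoter motif or a known role (Trpm5, Chat, Pou2f3, Psmb5), and Sst, Ghrl and Uty after their values were seen.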

Additional observations from a re-analysis of the deposited data

Results flagged for a closer look

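Fabp6 had a larger log2 fold change in mTEClo than in mTEChi, with a difference of 1.37, and all KO libraries lay above all WT libraries in mTEClo. Pappa2 differed by -0.70, with all KO libraries below all WT libraries in mTEClo. In both the difference itself passed edgeR's test in the 12-library fit. With 1 library left out, the call was lost in 4 of 12 fits for Fabp6 (difference 1.28 to 1.53, adjusted p 0.0145 to 0.0995 by edgeR) and in 9 of 12 for Pappa2 (-0.73 to -0.66, adjusted p 0.0195 to 0.215 by edgeR), and both lost it by voom with weights and with all 16 libraries.

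Reg3b, an antimicrobial lectin of the gut, had KO and WT groups that did not overlap in either population and lay in opposite order. It had 1.08, 2.22 and 1.95 CPM in mTEClo KO and 3.17, 4.06 and 7.66 CPM in mTEClo WT, against 32.4, 35.1 and 39.7 CPM in mTEChi KO and 29.5, 25.6 and 30.6 CPM in mTEChi WT. The log2 difference was -1.84 (SE 0.37), and it did not pass the test of the difference (adjusted p = 0.435 by edgeR).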

How the results depend on the processing

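Psmb11 kept its call in every setting but the fit of all 16 libraries (log2 fold change -2.92, adjusted p = 0.653 by edgeR), and ranged from -3.13 to -2.69 when 1 library was left out; on the log2(RPKM + pseudocount) scale it was -2.42 with 0.1 and -1.12 with 1. The count of called genes was 1 in the edgeR fit of 6 libraries. It was 21 with no filter beyond 1 count, 318 by DESeq2, 6 by voom with a weight per library, 3 and 2 by limma on log2 RPKM plus 0.1 and plus 1, 0 with all 16 libraries (1302 at an unadjusted p under 0.05), 12 with the 12 medullary libraries, and 2 with a length offset or a length and GC offset, which were added after seeing the data. Leaving out 1 library gave 1 to 2 calls, 2 without WT replicate 3. Members called of the lists other than taste receptors and nuclear noncoding RNAs numbered 0 of 916 in the main fit. They numbered 2 with no filter and 1 with the 12 medullary libraries. By DESeq2 they numbered 38 (14 higher, 24 lower), where 2.26% of all genes were called. The causes were not tested. The 2 calls for the difference between populations became 16 by DESeq2, 0 by voom with weights (1146 at an unadjusted p under 0.05) and 0 with all 16 libraries (314); leaving out 1 library gave 0 (WT replicate 1 of mTEClo, KO replicates 2 and 3 or WT replicate 2 of mTEChi) to 4 (KO replicate 2 of mTEClo). Genes detected differed by -108, from -246 to 3.20 when 1 library was left out (3.20 without WT replicate 1), and the share of reads outside genes by -2.85 percentage points, from -3.74 to -1.88. The labels do not say whether replicate numbers pair the samples. Deviations from the group mean correlated weakly between KO and WT libraries of the same number (0.09, 0.03 and -0.04), which cannot settle it. With a replicate block 1 gene was called, Psmb11 at -2.91 (adjusted p = 6.69e-04 by edgeR). Of 2300 values of named genes under other settings, 17 lost a call, 86 gained one and 21 changed sign, all 21 in 6 genes near 0 that no setting called; of 1011 list medians, 61 moved. With 1 library left out, Agk ranged from -0.0134 to 0.0981, Aire from -0.341 to 0.227, Chordc1 from -0.109 to 0.0232, Hspd1 from -0.0866 to 0.109, Ssbp1 from -0.0545 to 0.0205 and Uty from -0.104 to 0.339 (log2 fold change). With the length offset the sign also changed for Chordc1 (0.00458), Hspd1 (-0.0504; -0.0642 with length and GC) and Ssbp1 (0.0456; 0.0157 with length and GC), with a filter of 1 CPM for Hspd1 (-0.000392), and on log2 RPKM for Ssbp1 (0.0194 with 0.1, 0.0176 with 1).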

Other observations

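Olfr461 and its neighbours on chromosome 6 were looked at after the values were seen. Of the 10 other genes tested within 150 kb of it, 5 had every KO library below every WT library (9.18% of all genes) and 0 had the reverse, with a median log2 fold change of -0.39. The taste receptor genes Tas2r137 (chr6:40491238-40492239, -0.64), Tas2r108 (chr6:40493592-40494485, -0.50) and Tas2r138 (chr6:40612315-40613310, -0.65) lie on its sides, as does the noncoding gene E330009J07Rik (-0.57). Ssbp1, a mitochondrial DNA-binding protein in the same stretch, had 22.1, 20.1 and 21.2 CPM in KO and 21.3, 20.4 and 22.5 CPM in WT, and Agk had 11.2, 12.1 and 12.6 CPM in KO and 11.1, 11.2 and 12.9 CPM in WT, so not all genes of the stretch lay low. Of the 16 odorant receptor genes tested in all, 14 were under 0 with a median of -0.14, against -0.60 for the taste receptors.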
